A study of Rattus norvegicus with 72 samples.

Results

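The livers of rats given 150 mg/kg acetaminophen were examined at 6 h and at 24 h after dosing. They were chosen by their titles, which give this dose and time, and make up 6 of the 36 rats and 12 of the 72 arrays of the study. There were 3 rats at each time, numbered 3081, 3082 and 3083 at 6 h and 3069, 3070 and 3074 at 24 h. The whole study gave rats 50, 150, 1500 or 2000 mg/kg and collected liver at 6, 24 or 48 h. Acetaminophen was given in methyl cellulose by gavage, and control rats were gavaged with vehicle. Total RNA came from the left liver lobe. Each treated rat was hybridised against control RNA on 2 two-colour Agilent rat oligonucleotide arrays with the dyes exchanged. At 6 h the titles name a mock control on all 6 arrays. At 24 h they name a sham control on the 3 arrays with the treated rat in Cy5 and a mock control on the 3 arrays with the treated rat in Cy3, so that at 24 h the kind of control and the dye orientation cannot be told apart. The protocol states that control RNA was pooled from several animals. The labels give no strain, sex or age for the rats. The rats at 50 mg/kg, used for comparison, were gavaged in the same vehicle, sampled at the same times and set against a control pool of their own dose and time.

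Acetaminophen is cleared by the liver mostly as sulfate and glucuronide conjugates. A smaller part is oxidised by cytochrome P450 enzymes, Cyp2e1 among them, to a reactive quinone imine that is trapped by glutathione, and that injures hepatocytes when glutathione runs out. Metallothioneins are small cysteine-rich proteins that bind zinc and copper, and their genes respond to metals, glucocorticoids and oxidants. Glutathione synthesis and quinone reduction are controlled in part by the transcription factor NRF2, encoded by Nfe2l2.

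The values are log2 ratios of a treated rat over its control, averaged over its 2 arrays, and there is no level in them. The sign assumes that the deposited ratios are red over green, the usual convention of the scanner software. The labels do not state it, and every sign below would turn if it were the reverse. A gene was called when its limma p-value, adjusted by Benjamini-Hochberg over all 17299 features tested, was below 0.05 and its change at least 1.5-fold. A feature is a gene, or a probe without a gene symbol. The control counts as 1 sample at each time, so that the p-values leave out the spread between control rats.

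The 12 arrays held small ratios. The SD of the log10 ratio over probes was 0.0654 to 0.106 on them and 0.0876 to 0.276 on the other 60 arrays. Over all probes, the 2 arrays of a rat did not mirror each other. Their correlation, which is negative when exchanged dyes reverse the ratio, lay between 0.003 and 0.352 in the 6 rats after removal of each probe's mean dye effect. All 25 features called at 24 h had 1 sign on all 6 turned arrays, which their choice by the mean of these arrays favours, as did 10.9% of all features. The spread between rats of a group was small too. Its median SD was 0.0768 at 6 h and 0.0744 at 24 h on the log2 scale, against 0.102 to 0.229 in the other 10 groups. Over all features, pairs of rats of a group correlated at only 0.289 to 0.400 at 6 h and 0.34 to 0.429 at 24 h. The number of arrays limits the precision of every value.

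At 6 h the metallothionein genes Mt2A and Mt1 stood above all other genes. They lie side by side on chromosome 19, with 4958 bases between them, Mt1 at chr19:10831959-10832975 and Mt2A at chr19:10837934-10838708 in RefSeq's annotation of GRCr8. Their promoters are shown because metallothionein genes carry metal response elements, the sites of the zinc-sensing factor MTF-1 in mammals. The sequences are RefSeq's, build GRCr8, from 250 bases before to 50 after the start of the gene, on the gene's strand. Mt1 is at chr19:10832926-10833225, minus strand, and Mt2A at chr19:10838659-10838958, minus strand. Capitals mark matches, on either strand, to the core of the metal response element, TGCACNC or TGCGCNC, and no other motif was searched.
Mt1: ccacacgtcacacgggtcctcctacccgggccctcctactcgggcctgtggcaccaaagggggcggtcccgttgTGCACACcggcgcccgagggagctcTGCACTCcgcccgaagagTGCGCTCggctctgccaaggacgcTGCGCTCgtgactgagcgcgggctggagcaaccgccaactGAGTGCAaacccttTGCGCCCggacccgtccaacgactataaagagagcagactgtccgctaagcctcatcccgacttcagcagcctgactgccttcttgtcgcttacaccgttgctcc
Mt2A: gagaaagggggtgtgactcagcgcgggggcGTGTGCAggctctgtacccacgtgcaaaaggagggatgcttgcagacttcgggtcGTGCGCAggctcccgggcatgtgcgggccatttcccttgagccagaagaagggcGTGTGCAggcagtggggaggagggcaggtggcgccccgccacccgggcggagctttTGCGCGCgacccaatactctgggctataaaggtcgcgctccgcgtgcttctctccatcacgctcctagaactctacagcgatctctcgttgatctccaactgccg
The Mt1 window held 6 matches, 5 of them on the gene's strand, and the Mt2A window 4, 1 of them on the gene's strand. Among 33469 rat promoters of the same length, 24.2% held at least 1 match, 0.439% at least 4 and 0.0388% at least 6. A match is a match of letters and was not tested as a site.

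Mt2A was 7.82-fold above control at 6 h. Its log2 ratio was 3.01 in rat 3081, 2.46 in rat 3082 and 3.43 in rat 3083 (mean 2.97 ± 0.49, SD, n = 3, limma adjusted p = 4.24e-05). All 6 arrays lay between 2.33 and 3.51. Mt1 was 3.64-fold above control, with 1.94, 1.55 and 2.11 in the same rats (mean 1.86 ± 0.29, SD, n = 3, limma adjusted p = 0.00496). The 3 rats kept the same order in both genes, lowest in rat 3082 and highest in rat 3083. Mt3, the metallothionein best known from brain, was not called at log2 0.46 ± 0.17, and neither was Slc30a1, the zinc exporter that metal also induces, at -0.11 ± 0.15. Mt1 has pseudogenes in the rat reference, and whether its probe also binds their transcripts is uncertain.

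At 24 h both genes stood near control. Mt2A was at log2 0.87, 0.13 and 0.19 in rats 3069, 3070 and 3074, and Mt1 at 0.27, 0.00 and 0.14. No rat at 24 h overlapped a rat at 6 h in either gene, as in 21.0% of all features. The difference of 24 h minus 6 h was -2.57 for Mt2A (limma adjusted p = 0.072) and -1.73 for Mt1 (limma adjusted p = 0.213), so that neither was called. With the spread taken from the 18 rats at 50 and 150 mg/kg alone, an alternative chosen after seeing the data, these became 0.0106 and 0.00265.

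In the other groups of the study the pair moved by dose and time. After 50 mg/kg at 6 h Mt2A had a mean log2 ratio of 0.92 and Mt1 of 0.22, neither called. After 1500 mg/kg at 6 h the means were 2.47 and 2.77, and after 2000 mg/kg 4.57 and 4.54, all called. At 48 h after 150 mg/kg both genes were below control and called, at -1.60 ± 0.14 and -1.01 ± 0.08 (SD, n = 3). At 48 h after 1500 and 2000 mg/kg Mt2A was at 3.38 and 2.86 and Mt1 at 2.22 and 1.60, all called.

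**Figure D1:**
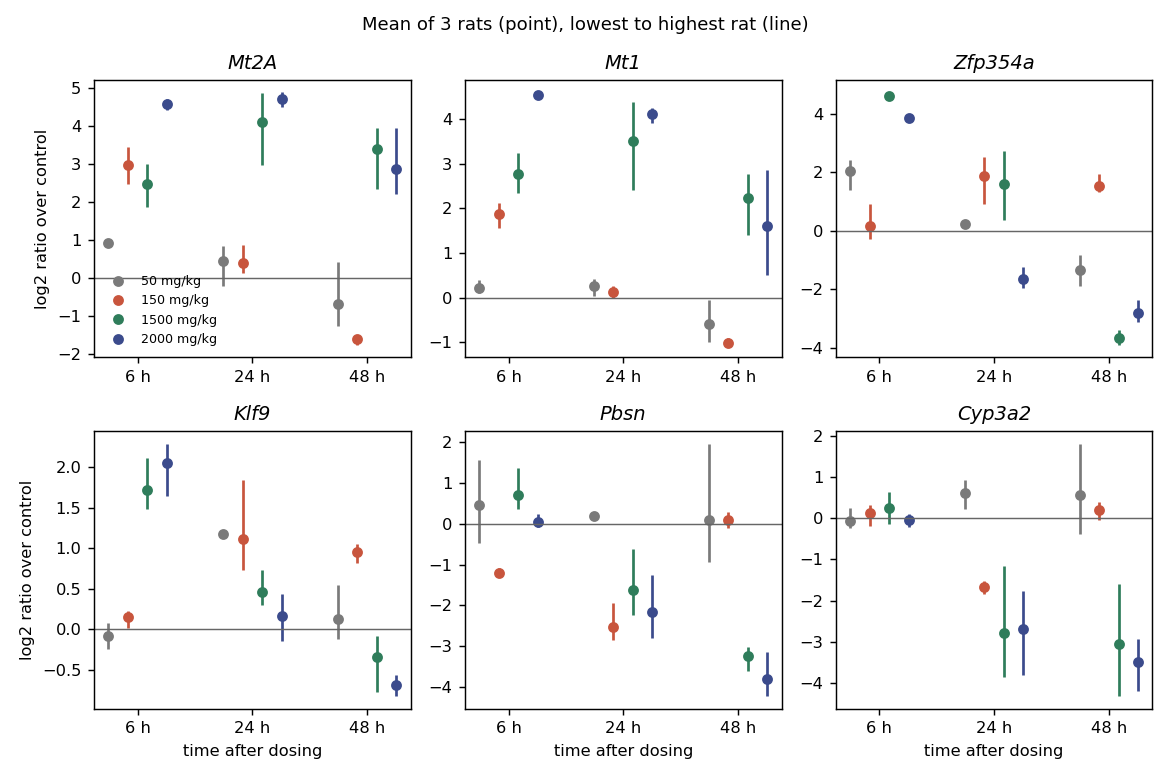
Log2 ratio over control of Mt2A, Mt1, Zfp354a, Klf9, Pbsn and Cyp3a2 in the 12 groups, by time after dosing (horizontal) and dose (colour). Points are means of 3 rats and lines run from the lowest to the highest rat. At 150 mg/kg Mt2A falls from a mean of 2.97 at 6 h to 0.40 at 24 h and -1.60 at 48 h, while Pbsn and Cyp3a2 are lowest at 24 h.

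Only 6 of 17299 features, 0.0347%, were called at 6 h, 4 higher (0.0231%) and 2 lower (0.0116%). These counts became 202 and 263 when every array was scaled to the same spread. Chka, the choline kinase that opens phosphatidylcholine synthesis, fell 1.64-fold, with -0.53, -0.84 and -0.77 in the 3 rats (mean -0.71 ± 0.16, limma adjusted p = 0.0282). Dbil5, a testis relative of the acyl-CoA-binding protein, was 1.95-fold higher, with 0.83, 1.03 and 1.02. Its 3 arrays with the rat in Cy5 averaged 1.39 and its 3 arrays in Cy3 0.53, so that its size differed by dye. Nploc4, a cofactor of the protein-extracting ATPase p97, was 2.17-fold higher as the mean of 2 probes that disagreed, one at 2.22 and the other at 0.02. The sixth feature was probe 21570, which has no gene symbol and fell to -0.61 ± 0.07. Leaving out any 1 of the 3 rats left Mt2A as the only call. Mt1 then lay between 1.74 and 2.02 with an adjusted p of 0.0501 to 0.171, Nploc4 between 0.92 and 1.30, Dbil5 between 0.93 and 1.03, and Chka between -0.80 and -0.65. With the 3 rats as the only source of spread 0 features were called by limma, and 1371 had an unadjusted p below 0.05 in the fit over all rats.

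Gadd45g, Sgk1 and Dusp1 were below control on all 6 arrays at 6 h without being called, and 14.4% of all features had 1 sign on all 6 arrays. Of these 3 genes only Dusp1 was on the list of immediate early genes. Of the 16 measured genes of that list 0 were called by limma, against 0.0347% of all features, and the median was -0.10. At an unadjusted p below 0.05, 1 was lower and 0 higher, against 4.38% and 3.54% of all features. These counts lie near the shares over all features. Gadd45g, a stress-responsive growth arrest gene, was at -1.20, -1.93 and -1.55 (mean -1.56, limma adjusted p = 0.0786). Sgk1, a kinase induced by glucocorticoids and serum, was at -0.50, -1.73 and -1.03. Dusp1, a phosphatase that turns off MAP kinases, was at -0.40, -1.28 and -1.11. Rat 3081 was nearest to control in all 3 genes. Insig1, which holds the sterol sensor in the endoplasmic reticulum, was at -0.54, -0.77 and -1.44 (limma adjusted p = 0.131), and Aacs, which makes acetoacetyl-CoA for lipid synthesis, at -0.58, -0.57 and -0.99. On the other side Dbp, a circadian transcription factor, was at 0.48, 1.03 and 1.13 (limma adjusted p = 0.0962), and Akr7a3, an aldehyde reductase of the NRF2 response, at 0.50, 0.52 and 1.08 (limma adjusted p = 0.452). With the spread of the 18 rats at 50 and 150 mg/kg, Gadd45g, Dusp1, Insig1 and Dbp were called, and Sgk1 and Aacs were not.

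Erich1, Akirin2, Hoxb2, Fxyd7, Sox15 and Tcf7l1 were among the 12 features with the highest ratios at 6 h, and were set together after their values were seen. Erich1 was at 0.89, 1.37 and 1.23, Akirin2, a nuclear cofactor of inflammatory transcription, at 0.88, 1.32 and 1.18, and the homeobox gene Hoxb2 at 0.73, 0.93 and 0.90. Fxyd7, Sox15 and Tcf7l1 had means of 0.82, 0.81 and 0.78. At 24 h rat 3069 was the highest in all 6 of these genes, from 0.55 for Tcf7l1 to 0.91 for Erich1, and the other rats lay between 0.13 and 0.28. None was called at either time, with limma adjusted p-values of 0.0962 to 0.258 at 6 h, and all 6 were called at 6 h with the spread of the 18 rats at 50 and 150 mg/kg. Spata22, also among the 12, was at 0.72, 0.54 and 1.08 at 6 h and at -0.04, -0.07 and 0.24 at 24 h, highest in rat 3074. Each of the 6 was below control at 48 h after 150 mg/kg, from -0.29 for Erich1 to -0.56 for Hoxb2. Over all features the mean ratios at 6 h and 48 h after 150 mg/kg correlated at -0.303, and these 6 genes were chosen as high at 6 h.

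Of 20 measured genes of cholesterol synthesis, 19 had mean ratios below control at 6 h. None of them passed the limma test with adjustment (0 called), while 14 were lower and 1 higher at an unadjusted p below 0.05, against 4.38% and 3.54% of all features. Their median was log2 -0.37, beside 0.00 over all features. Per rat the median was -0.25, -0.27 and -0.53, and 16, 19 and 19 of the 20 genes were below 0 in rats 3081, 3082 and 3083. The lowest members were Insig1 at -0.92, Fdps, which makes farnesyl diphosphate, at -0.58, and Sqle, the squalene epoxidase, at -0.54. Srebf2, the transcription factor that drives the pathway, was at 0.14. At 24 h the median was -0.03, with 4 genes lower and 1 higher at an unadjusted p below 0.05. Insig1 then stood at 0.50 and Sqle at -0.47. The rats differed at 24 h, with medians of -0.05, 0.10 and -0.26 in rats 3069, 3070 and 3074. In these rats 15, 7 and 15 of the 20 genes were below 0. The medians of the list after 50 mg/kg were -0.09 at 6 h and 0.04 at 24 h. After 1500 and 2000 mg/kg at 6 h they were -0.13 and -0.20, with 3 and 7 genes called lower and 1 and 0 higher. At 24 h after these doses they were -1.12 and -0.90, with 16 and 12 genes called lower. Of all 17299 features 486 and 493 were called lower at 6 h after these doses, and 475 and 767 at 24 h. Members of one pathway are not replicates, and the counts describe these 3 rats.

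At 24 h 25 features, 0.145%, were called, 16 higher (0.0925%) and 9 lower (0.052%), and 180 and 362 with arrays scaled to equal spread. Pbsn, probasin, an androgen-dependent secreted protein of the lipocalin family, was 5.74-fold lower. Its values were -1.94, -2.86 and -2.77 in rats 3069, 3070 and 3074 (mean -2.52 ± 0.51, SD, n = 3, limma adjusted p = 0.00258). At 6 h it was already at -1.28, -1.24 and -1.07, below control on all 6 arrays and not called. Pbsn did not overlap between the 2 times, and neither did 21.0% of all features. After 50 mg/kg it was at 0.47 and 0.19 at 6 h and 24 h, and at 48 h after 150 mg/kg at 0.09.

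Zfp354a, a zinc-finger repressor also known as Kid-1, rose 3.65-fold at 24 h, with 0.91, 2.15 and 2.54 (mean 1.87 ± 0.85, limma adjusted p = 0.00373). Its lowest value at 24 h, in rat 3069, lay just above the highest at 6 h, in rat 3082, both 0.91 after rounding, and the other rats at 6 h were at -0.14 and -0.26. Klf9, a Krüppel-like factor induced by glucocorticoids and thyroid hormone, rose 2.17-fold, with 0.74, 0.78 and 1.84. Per1, a clock gene that glucocorticoids also induce, rose 1.85-fold, with 0.46, 0.99 and 1.20 over 2 probes with means of 0.50 and 1.26, and Errfi1, an inhibitor of the EGF receptor, rose 1.54-fold. In all 4 genes rat 3074 was highest. Of the 16 measured genes on the glucocorticoid-responsive list, Klf9, Per1 and Errfi1 were the 3 called at 24 h, where 0.0925% of all features were called higher, and Mt1 and Mt2A the 2 called at 6 h, where 0.0231% were. At an unadjusted p below 0.05, 3 members were higher and 2 lower at 24 h, against 1.91% and 3.74% of all features. At 6 h 2 were higher and 4 lower, against 3.54% and 4.38%. The lowest member at 6 h was Gadd45g at -1.56. The list as a whole had medians of 0.08 at 24 h and -0.05 at 6 h, and Sgk1, also on it, was at -1.04 at 24 h. Tsc22d3, another glucocorticoid target, averaged 0.15, -0.11 and 0.49 over 2 probes that went opposite ways, with means of -0.24 and 0.59. The gluconeogenic enzymes Tat and Sds were at 0.57 ± 0.75 and 0.60 ± 0.45, and none of the 3 genes was called.

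**Figure D2:**
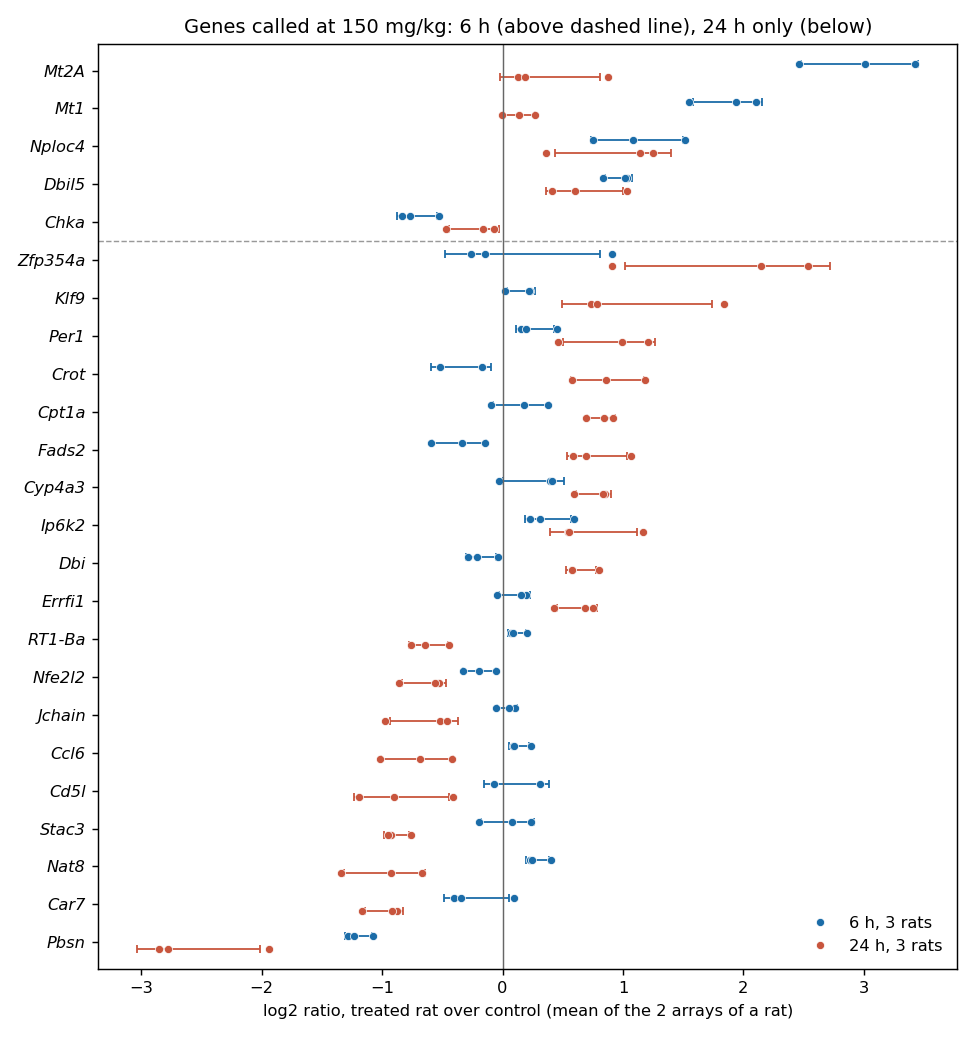
Log2 ratio over control (horizontal) of each gene with a symbol that was called at 6 h (above the dashed line) or at 24 h only (below it), with 3 rats at 6 h in blue and 3 at 24 h in red, and bars of ± 1 SD around the mean. Crot and Cd5l have 2 rats at 6 h. Mt2A and Mt1 stand at 2.97 and 1.86 at 6 h and near 0 at 24 h, and Pbsn goes from -1.20 to -2.52.

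Cpt1a, Crot, Cyp4a3, Fads2 and Dbi, which handle fatty acids, rose at 24 h. Cpt1a, which carries long-chain fatty acids into mitochondria, was at 0.84, 0.69 and 0.92 (1.76-fold, limma adjusted p = 0.014). Crot, the peroxisomal octanoyltransferase, was at 0.86, 0.57 and 1.19, and Cyp4a3, a fatty acid omega-hydroxylase under PPARA, at 0.85, 0.59 and 0.83. In each gene all 3 rats were above control and above every rat measured at 6 h. The rats of the 2 times did not overlap in 21.0% of all features. Fads2, the delta-6 desaturase, rose 1.72-fold, and Dbi, the acyl-CoA-binding protein, 1.57-fold. Dbi was at 0.58, 0.80 and 0.58, and its 2 probes agreed at 0.70 and 0.60. Of 26 measured genes of fatty acid oxidation and PPARA targets, Cpt1a and Cyp4a3 were called, and 7 were higher and 0 lower at an unadjusted p below 0.05, against 1.91% and 3.74% of all features. The median was 0.11 beside 0.01 over all features, and it was 0.07, 0.12 and 0.12 in the 3 rats. It was also 0.11 after 50 mg/kg at 24 h, with 2 genes called higher, as were 363 of all 17299 features. At 48 h it was 0.21 after 50 and 0.18 after 150 mg/kg. Ech1, a peroxisomal and mitochondrial isomerase, was at 0.60, and Acadl, a long-chain acyl-CoA dehydrogenase, at 0.32, both not called. Crat, carnitine acetyltransferase, was at 0.66, 0.64 and 0.90 (limma adjusted p = 0.0947), all above the 6 h rats, which lay between -0.26 and -0.22.

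Genes of oxidative phosphorylation had ratios near control at both times. Of 50 measured, 0 were called at either time by limma, and at 6 h 13 were lower and 0 higher at an unadjusted p below 0.05, against 4.38% and 3.54% of all features. At 24 h 13 were higher and 1 lower, against 1.91% and 3.74%. The medians were -0.08 and 0.06. For the difference of 24 h minus 6 h 14 were higher and 0 lower at an unadjusted p below 0.05, against 2.16% and 1.23% of all features.

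Cd5l, Ccl6, Jchain and RT1-Ba fell at 24 h. Cd5l, a secreted scavenger protein of Kupffer cells, the resident macrophages of liver, was at -0.90, -0.42 and -1.19 (1.79-fold lower, limma adjusted p = 0.014). Ccl6, a macrophage chemokine, was at -0.69, -0.42 and -1.02, Jchain, the joining chain of secreted antibodies, at -0.52, -0.46 and -0.98, and RT1-Ba, an MHC class II chain, at -0.44, -0.64 and -0.76. Rat 3074 was the lowest in all 4 genes. Of 24 measured macrophage and Kupffer cell markers, Cd5l was the 1 called, 9 were lower and 0 higher at an unadjusted p below 0.05, against 3.74% and 1.91% of all features, and 20 were below 0, as were 8125 of the 17299 features. Their median was -0.28, and -0.24, -0.18 and -0.40 in the 3 rats, while at 6 h it was 0.07. For 24 h minus 6 h 7 were lower and 0 higher at an unadjusted p below 0.05, against 1.23% and 2.16%. Marco, a scavenger receptor of these cells, was at -0.71, -0.35 and -0.94 (limma adjusted p = 0.12), Clec4f, a lectin restricted to Kupffer cells in rodents, at -0.46, and C1qb at -0.42. Csf1r, Cd68, Cd163 and Adgre1, which also mark macrophages, lay between -0.06 and 0.05. Fewer macrophages and less RNA per macrophage cannot be told apart in whole liver. Of 20 measured interferon-responsive genes 0 were called by limma at 24 h. At an unadjusted p below 0.05, 6 were lower, among them Gbp2 at -0.55 and Psmb9 at -0.55, against 3.74% of all features. Of 3 measured B cell markers Jchain was called, and the other 2 lay at 0.00 and 0.03. At an unadjusted p below 0.05, 2 of 18 T and NK cell markers, 1 of 14 endothelial markers and 1 of 13 markers of skeletal muscle, fat and pancreas were lower and 0 of each were higher. Over all features 3.74% were lower and 1.91% higher, and counts this small in short lists are not read as a result. The medians of neutrophil, stellate and erythroid markers lay between -0.06 and 0.04 at 24 h, and 0 of them had an unadjusted p below 0.05 in either direction. The part of cell composition in the other results was not tested.

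Among genes of drug metabolism and defence, Nfe2l2, which encodes NRF2, fell 1.57-fold at 24 h, with -0.53, -0.56 and -0.86 (limma adjusted p = 0.00756). Of 23 measured NRF2 targets 0 were called at either time by limma, with medians of 0.01 at 6 h and -0.08 at 24 h. At 6 h 4 were higher and 2 lower at an unadjusted p below 0.05, against 3.54% and 4.38% of all features. At 24 h 1 was higher and 3 lower, against 1.91% and 3.74%. The highest member at 6 h was Akr7a3 at 0.70 and the lowest at 24 h was Osgin1 at -0.94, neither called. The quinone reductase Nqo1 was at 0.13 ± 0.36 and -0.10 ± 0.13, the heme oxygenase Hmox1 at 0.05 ± 0.12 and -0.19 ± 0.09, and Gclm, the regulatory subunit of glutathione synthesis, at 0.23 ± 0.30 and -0.45 ± 0.16 (SD, n = 3). At 24 h after 1500 and 2000 mg/kg, 16 and 15 of these targets were called higher, as were 1235 and 1785 of all 17299 features. Nat8, an acetyltransferase of cysteine conjugates that completes mercapturic acids, fell 1.97-fold at 24 h, with -0.93, -1.34 and -0.67. All lay below the 6 h rats at 0.23, 0.24 and 0.40, and the 2 times did not overlap in 21.0% of all features.

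Of 12 measured genes of sulfation and glucuronidation 0 were called by limma at 24 h, and 5 were lower and 0 higher at an unadjusted p below 0.05, against 3.74% and 1.91% of all features, with a median of -0.34. Papss2, which makes the sulfate donor, was at -0.57, Ugp2, which makes UDP-glucose, at -0.53, Sult1c2 at -0.41 and Slc26a1, a sulfate transporter, at -0.37. The median was below 0 in all 3 rats, at -0.37, -0.19 and -0.28, and at 6 h it was 0.04. Of 21 P450 genes and their reductase 0 were called at either time by limma, with 4 lower and 3 higher at 24 h at an unadjusted p below 0.05, beside the same 3.74% and 1.91%. Cyp3a2, a P450 expressed mainly in male rats, was at -1.52, -1.83 and -1.67 at 24 h, 3.19-fold lower on average with a narrow spread between rats and not called (limma adjusted p = 0.109), after 0.33, -0.19 and 0.23 at 6 h. Its relative Cyp3a23-3a1 was at -0.85 ± 0.05, and Cyp2c7, a P450 more active in females, at 0.80 ± 0.10. With the spread of the 18 rats at 50 and 150 mg/kg, all 3 P450 genes were called, with adjusted p-values of 0.00646, 0.0157 and 0.00562. Cyp2e1 was at 0.14 ± 0.34 and 0.09 ± 0.11 at the 2 times, and Cyp1a2 at 0.01 ± 0.14 and -0.19 ± 0.26. The members of a P450 subfamily are close in sequence, and whether a probe separates them is uncertain.

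**Figure D3:**
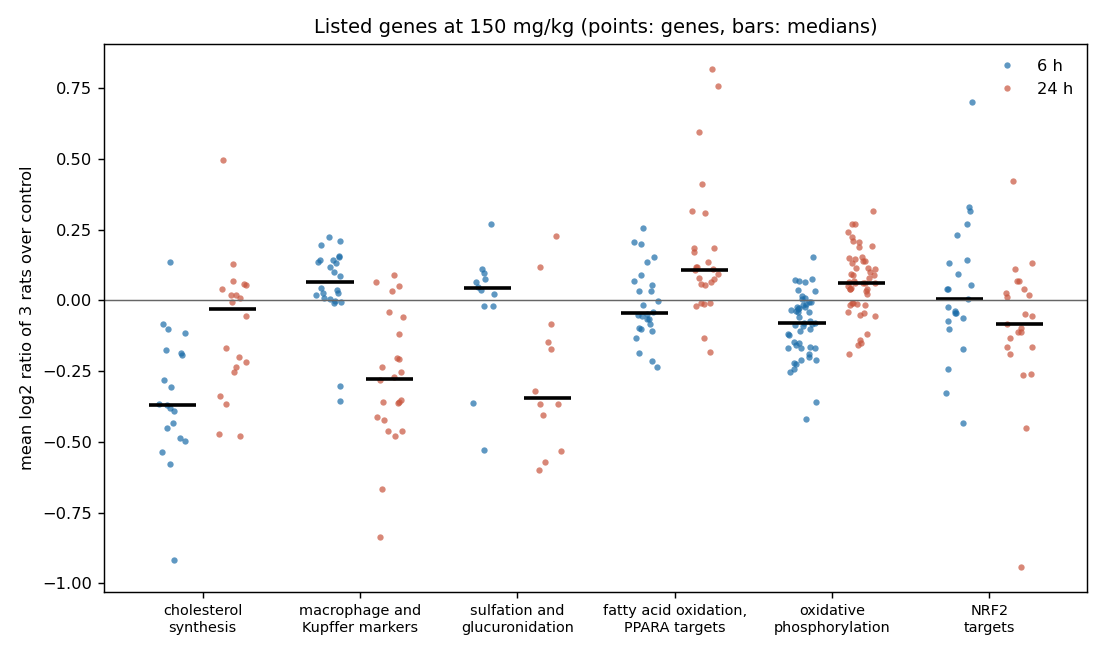
Mean log2 ratio over control (vertical) of each measured gene of 6 lists at 6 h in blue and at 24 h in red, with the median of each list as a bar. The median of cholesterol synthesis is -0.37 at 6 h and -0.03 at 24 h, and that of the macrophage and Kupffer markers 0.07 and -0.28.

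The remaining calls at 24 h were Car7, a carbonic anhydrase, at -0.88, -0.91 and -1.16 (1.98-fold lower), Stac3, a muscle calcium channel adaptor, at -0.93, -0.76 and -0.95 (1.84-fold lower), Ip6k2, an inositol hexakisphosphate kinase, at 0.54, 1.17 and 0.55, and Nploc4, at 1.25, 1.14 and 0.36 from the same pair of unlike probes as at 6 h. Car7 and Stac3 lay below every rat at 6 h, and Ip6k2 overlapped them. Among all features 21.0% had no overlap between the 2 times. Another 5 called features, all higher, were probes without a symbol, of which probe 6886 was 2.31-fold higher and had no overlap with the 2 rats measured at 6 h. Stac3 was also 1.03 above control and called at 48 h after 150 mg/kg, on the other side of control from 24 h. In lists of the integrated stress response, heat shock proteins, p53 targets, acute phase proteins and DNA replication 0 genes were called at either time by limma, and 3 or fewer of each list had an unadjusted p below 0.05. Of all features 0.0347% were called at 6 h and 0.145% at 24 h. At an unadjusted p below 0.05, 3.54% were higher and 4.38% lower at 6 h, and 1.91% and 3.74% at 24 h.

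With the 3 rats at 24 h as the only source of spread 4 features were called by limma, 2 higher and 2 lower. Every gene with a symbol that was called at 24 h in the fit over all rats lost its call there. Leaving out 1 rat at 24 h left between 3 and 12 features called. The calls of Ccl6, Cpt1a, Crot, Cyp4a3, Errfi1, Fads2, Jchain, Nat8, RT1-Ba and Stac3 ended without any 1 of the 3 rats, with log2 ratios of 0.77 to 0.88 for Cpt1a and -1.14 to -0.80 for Nat8. The calls of Pbsn, Zfp354a, Per1 and Nfe2l2 ended without rat 3070 or 3074, with Pbsn between -2.82 and -2.35 and Zfp354a between 1.53 and 2.34 over the 3 subsets. Those of Klf9 and Car7 ended without rat 3074, at 0.76 and -0.90, those of Dbi and Ip6k2 without rat 3070, at 0.58 and 0.55, that of Cd5l without 3069 or 3074 and with the spread of the 18 rats at 50 and 150 mg/kg (adjusted p = 0.0513), and that of Nploc4 without 3069 or 3070. No sign turned.

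The 25 features called at 24 h were chosen by the mean over the sham and the mock arrays, so that their equal signs on both sets do not show whether the controls agreed. The difference between the pair of means lay between -0.62 for Pbsn and 0.27 for Nploc4. Pbsn averaged -2.83 on the sham arrays and -2.21 on the mock arrays, Zfp354a 1.91 and 1.82, and Klf9 0.94 and 1.30. A test of sham against mock arrays, with the dye effect taken from the 10 groups with a pool, called 26 features, 0.15%, 17 higher (0.0983%) and 9 lower (0.052%). The same test called 20 features in the 6 h group, where both orientations carried a mock control, and 0 to 376 in the 10 pool groups.

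**Figure D4:**
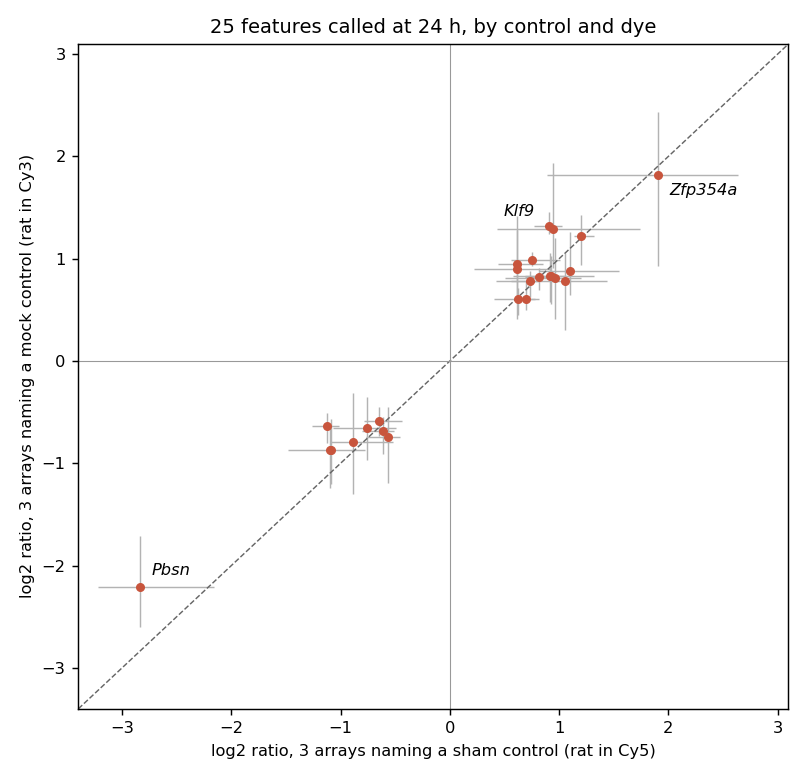
The 25 features called at 24 h, with the mean log2 ratio of the 3 arrays naming a sham control (horizontal, treated rat in Cy5) against that of the 3 arrays naming a mock control (vertical, treated rat in Cy3). Lines run from the lowest to the highest array and the dashed line marks equal values. The features were chosen by the mean of both axes, and Pbsn lies at -2.83 and -2.21.

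The 2 times were also compared directly, which includes any difference between their controls. Only 2 features, 0.0116%, were called, both higher at 24 h, against 336 higher and 284 lower with scaled arrays. Dbi was at -0.21, -0.04 and -0.29 at 6 h and at 0.58, 0.80 and 0.58 at 24 h, a difference of 0.83 (1.78-fold, limma adjusted p = 0.0273). Probe 21570 was at -0.60, -0.68 and -0.55 at 6 h and at 0.17, 0.29 and 0.30 at 24 h, a difference of 0.86 (limma adjusted p = 0.00743). The rats of the times did not overlap in either, and they did not overlap in 21.0% of all features. The call of Dbi ended without any 1 of the 6 rats, at 0.76 to 0.90, and that of probe 21570 without rat 3070, 3074, 3081 or 3082, at 0.84, 0.84, 0.87 and 0.82. Beyond Mt2A and Mt1, genes with large uncalled differences were Cyp3a2 at -1.80, Zfp354a at 1.70, Rec114 at -1.47, Insig1 at 1.41 (limma adjusted p = 0.14), Hhex at 1.33, Pbsn at -1.32, Nat8 at -1.27, Slc25a25, a mitochondrial ATP-magnesium carrier, at 1.26, and Fads2 at 1.15. Amacr, the racemase of branched fatty acids and bile acid intermediates, was at 0.46, 0.34 and 0.43 at 6 h and at -0.32, -0.32 and -0.51 at 24 h, on opposite sides of control in every rat and not called (limma adjusted p = 0.687). With the spread of the 18 rats at 50 and 150 mg/kg, Mt2A, Mt1, Nat8, Fads2 and Amacr were among 24 calls.

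Against 50 mg/kg at the same time, each dose relative to its own control, 232 features, 1.34%, differed at 6 h, 21 higher (0.121%) and 211 lower (1.22%) at 150 mg/kg, and 325 and 825 with scaled arrays. In the 50 mg/kg rats themselves 236 features were called higher and 10 lower at that time. Mt2A and Mt1 were higher at 150 mg/kg by 2.04 and 1.64, and Erich1 by 1.59. The lowest were Zfp354a, Usp7, a deubiquitinase, and Topors, a ubiquitin and SUMO ligase, at -1.87, -1.63 and -1.54. Zfp354a had a mean of 2.03 after 50 mg/kg and 0.17 after 150 mg/kg, Usp7 of 1.74 and 0.11, and Topors of 1.48 and -0.07. In these 3 genes the lower dose was the one away from its own control. Each dose had its own control RNA, so a difference between the controls cannot be told apart from a difference between the doses. At 24 h 496 features, 2.87%, differed, 149 higher (0.861%) and 347 lower (2.01%) at 150 mg/kg. Against their own control, 363 features were called higher and 252 lower in the 50 mg/kg rats at that time, and 16 and 9 in the 150 mg/kg rats. Slc25a25, Tat, the tyrosine aminotransferase, and Zfp354a were higher at 150 mg/kg than at 50 mg/kg by 1.91, 1.68 and 1.62. Tat and Slc25a25 were below control after 50 mg/kg, at -1.12 and -1.32, and above it after 150 mg/kg, at 0.57 and 0.59. Pbsn, Cyp3a2 and Dusp6, a phosphatase of ERK, were lower, at -2.72, -2.27 and -1.65. Klf9 did not pass the test, at 1.12 after 150 and 1.18 after 50 mg/kg. The call of Mt1 at 6 h ended without any 1 of the 6 rats, at 1.52 to 1.80, and that of Mt2A without 5 of the 6, at 1.81 to 2.05. Calls also ended for Erich1 without 4 of the 6 rats (1.49 to 1.57), Zfp354a without 4 at 6 h (-1.74 to -1.65) and 4 at 24 h (1.28 to 1.61), Cyp3a2 without 5 (-2.35 to -2.11), Tat without 5 (1.35 to 1.73), and Dusp6 without rat 3137 (-1.52).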

How the data were processed

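The authors deposited log10 ratios, one column for each of 72 two-colour arrays, made with Agilent Feature Extraction software, per the labels. Its version, settings and normalization were not given in the sources used here, and intensities were not used. Ratios were converted to log2, turned by the dye of the treated rat and averaged over its 2 arrays. The platform annotation gives 1 gene symbol for 12750 of 20500 probes, several for 5 and none for 7745. Probes of a gene were averaged. Features needed values from 2 rats in every group, which left 17299 of 17403, 9606 with a symbol.

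The 12 groups of 36 rats were fitted together with limma 3.58.1 in R 4.3.3 (residual df 24, prior df 3.276), checked on simulated data, and tables were made with Python 3.11.15 and pandas 2.3.3. Tests are two-sided. Nothing but the rat numbers in the labels marks the rats as separate animals. Genes were named if they were called, if they were among the 12 highest or 12 lowest with the same sign on all 6 arrays (for the 2 times, rats not overlapping) and an unadjusted p below 0.05, among the 3 highest or lowest calls against 50 mg/kg, or members of written lists. The members, lists and named genes were chosen with earlier results of these data known. Cyp7a1 and Gclc, also chosen to be named, were not analysed here. Alternatives changed the fold minimum, the rats that give the spread, the scaling, centring, handling of missing and zero values, probe averaging, dye orientation and each rat.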

Additional observations from a re-analysis of the deposited data

Results flagged for a closer look

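Dbi and probe 21570 differed between 6 h and 24 h by a test of the difference itself. The difference of 24 h minus 6 h was 0.83 on the log2 scale for Dbi, the acyl-CoA-binding protein, with 3 of 3 rats below control at 6 h and 3 of 3 above it at 24 h. It was 0.86 for probe 21570, which has no gene symbol, with the same pattern in the rats. Each time had its own control RNA, so a difference between the controls cannot be told apart from a difference between the times. In the other groups probe 21570 was at 1.00 and 0.87 at 6 h after 1500 and 2000 mg/kg, called in both, and Dbi was at -0.70 and -0.95 at 24 h after those doses, also called.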

How the results depend on the processing

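Counts of calls are given in the order 6 h, 24 h, 24 h minus 6 h, 150 minus 50 mg/kg at 6 h, the same at 24 h, and sham against mock, and were 6, 25, 2, 232, 496 and 26. For the first 5 comparisons, counts within 1.5 times of these came from centring, single probes, robust moderation, no minimum on missing values and zeros taken as missing. Scaling arrays to equal spread, which enlarges these 12 arrays' small ratios, gave 465 (202 higher, 263 lower), 542 (180 and 362), 620 (336 and 284), 1150 (325 and 825), 1527 (505 and 1022) and 565 (273 and 292). Without a fold minimum they were 8, 51, 2, 349, 1023 and 70, and with spread from the rats compared alone 0, 4, 36, 361 and 702. Arrays as observations with the rat as a random block gave 51, 59, 59, 329 and 633. Arrays with the rat in Cy5 alone gave 304, 222, 7, 469 and 2080, and in Cy3 alone 159, 266, 2, 551 and 1384. Of 2 alternatives chosen after seeing the data, spread from the 18 rats at 50 and 150 mg/kg gave 45, 49, 24, 341 and 805, and from the 6 rats of both times 48 and 49. The causes of these shifts in number were not tested. With each rat left out in turn the counts ranged from 1 to 1, 3 to 12, 0 to 2, 150 to 188, 150 to 578, and 3 to 9. At 24 h they were 12, 3 and 4 without rats 3069, 3070 and 3074. Against 50 mg/kg at 24 h they were 150, 294, 284 and 190 without rats 3069, 3070, 3074 and 3137, and at 6 h 150 and 153 without rats 3125 and 3082. Among the named genes, 0 called values turned their sign under any alternative run, and Mt2A at 6 h kept its call in 14 of 15. No paired analysis was possible because the rats of different groups share no number. Signal over background was not used, so limits set by dim probes are unknown.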

Other observations

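Other genes with 1 sign on all 6 arrays of a time are given as values, none of them called against control. At 6 h Avpr1a, the vasopressin receptor of hepatocytes, was at -0.52, -0.82 and -0.96, Polg2, the accessory subunit of the mitochondrial DNA polymerase, at -0.83, -0.58 and -0.85, and Ddhd1, a phospholipase, at -0.60, -0.80 and -0.89. Hhex, a homeobox factor of liver development, spread more widely, at -0.08, -1.37 and -0.97. All 4 lay below every rat at 24 h, and the rats of the 2 times did not overlap in 21.0% of all features.

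At 24 h Rec114, a meiotic recombination gene, was at -1.20, -1.38 and -0.90, Osgin1, an oxidative stress-induced growth inhibitor, at -0.83, -0.83 and -1.17, and Akr1c1, a hydroxysteroid dehydrogenase, at -0.76, -0.55 and -0.93. Rab30, a Golgi GTPase, was at 0.85, 0.93 and 0.97, and Acsm2, a medium-chain acyl-CoA ligase, at 0.76, 0.52 and 0.76. In each of these 5 genes the rats at 24 h did not overlap those at 6 h, as in 21.0% of all features. The limma adjusted p-values at 24 h lay between 0.216 for Osgin1 and 0.424 for Rec114.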
